A study of Mus musculus with 4 samples.

Results

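The cells described here are marrow monocytes with Ccr2, chosen from their RNA counts in the growing end of the mouse thigh bone. A cell was a member when it held unique molecular identifiers (UMIs, 1 per captured RNA molecule) of at least 3 of 7 genes: Ccr2, Ly6c2, Adgre4, Gpr141, Klra2, Ear2 and Cybb. It also had to hold at most 2 UMIs of C1qa, C1qb and C1qc together, which mark tissue macrophages. The neutrophil granule genes Ngp, Camp, Ltf and Lcn2 had to make up under 3% of its UMIs, and so had S100a8 and S100a9. A UMI of the B-lineage gene Cd79a, or of 5 or more of the 7 osteoclast genes Acp5, Ctsk, Atp6v0d2, Dcstamp, Ocstamp, Slc9b2 and St18, removed a cell. The rule found 2013 members among 49055 kept cells, which had 500 or more genes, 1000 or more UMIs and no more than 15% of UMIs from mitochondrial genes. Since these values chose the members, the levels of the 7 genes and the absence of the limiting genes are a description and support nothing.

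The femoral epiphysis of wild-type mice was sampled on postnatal days 7, 8, 10 and 12, with 1 droplet single-cell library for each day. All 4 groups share genotype and tissue and differ in age alone by their labels, and no source used here gives the number of animals behind a library. Tissue was digested with enzymes, strained and depleted of red cells, although the protocol text names bowel tissue at the digestion step. The series title concerns whether cartilage cells can become blood stem cells by way of vessel cells. With 1 library for each day there is no test between days and no replicate error: age, library, depth and the sex of the animals cannot be told apart. Intervals in brackets are 95%, exact Poisson for levels, exact Clopper-Pearson for shares and exact conditional for folds, and they cover counting error only.

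Monocytes are short-lived white cells made in the marrow from granulocyte and monocyte progenitors under the transcription factor PU.1 (Spi1) and the growth factor receptor Csf1r. Classical monocytes carry much Ly6c2 and use the chemokine receptor Ccr2 to leave the marrow for inflamed tissue, where some become macrophages or dendritic cells. Patrolling monocytes, which depend on Nr4a1, carry little Ly6c2 and much Cx3cr1 and crawl along vessel walls. In bone, cells of this lineage can also fuse into osteoclasts.

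PU.1 binds a purine-rich core, GAGGAA, so the promoters of the rule's genes and of the genes highest in members were searched for it. RefSeq promoters of GRCm38.p6, from 250 bases before to 50 bases after each start, were searched on both strands, and a site on the other strand reads TTCCTC. The 5 windows printed here run 5′ to 3′ on the gene's strand from 150 to 51 bases before the start, with the core in capitals. They show Ccr2, the receptor that names these cells, then Ly6c2 and Klra2 from the rule, and Ms4a4c and Clec7a from the genes highest in members. Their places are chr9:124102033-124102132 (plus strand) for Ccr2, chr15:75111988-75112087 (minus) for Ly6c2, chr6:131247413-131247512 (minus) for Klra2, chr19:11407511-11407610 (plus) for Ms4a4c and chr6:129472830-129472929 (minus) for Clec7a.
Ccr2: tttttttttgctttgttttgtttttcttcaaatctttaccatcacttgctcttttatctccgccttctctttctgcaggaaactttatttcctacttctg
Ly6c2: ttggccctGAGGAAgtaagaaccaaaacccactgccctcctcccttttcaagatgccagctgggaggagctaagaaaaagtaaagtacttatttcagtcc
Klra2: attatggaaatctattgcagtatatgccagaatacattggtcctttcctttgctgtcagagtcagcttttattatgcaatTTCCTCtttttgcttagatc
Ms4a4c: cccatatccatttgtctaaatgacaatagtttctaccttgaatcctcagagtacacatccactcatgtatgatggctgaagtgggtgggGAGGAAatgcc
Clec7a: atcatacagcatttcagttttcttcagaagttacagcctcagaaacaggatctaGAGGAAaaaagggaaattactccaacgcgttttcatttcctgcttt
The Ccr2 promoter held no match. The core was found in 4 of the 7 rule genes (57.1%: Ly6c2, Adgre4, Klra2 and Cybb) and in 4 of the 12 matched genes among the 15 highest in members (33.3%: Ms4a4c, Clec7a, Rnase6 and Marchf1). Over every gene with a RefSeq promoter the core was in 8446 of 27025 (31.3%). A match describes letters in a window and is no sign of binding.

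The 4 libraries held 44218720, 46534365, 132282322 and 169323978 UMIs, and the kept cells had medians of 3103, 3168.5, 7706.5 and 6563.5 UMIs on days 7, 8, 10 and 12. Members had medians of 3181, 3388, 11470 and 4925 UMIs, so the day-10 members were the deepest. Pairs of libraries shared between 72 and 282 cell barcodes, and 1, 0, 15 and 46 members had a barcode that also occurred in another library. Ddx3y, a Y-linked gene, stood at 125, 32.9, 0.185 and 87.9 CPM in members (CPM is a gene's summed UMIs scaled to the same total in each library), so the day-10 library lacked the Y-linked RNA that the others held. Irf8, Itgam, Myd88 and Apoc2 had no UMI in any kept cell of any library, so the transcription factor and integrin that usually mark monocytes could not be read.

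Members formed 0.239% (27 of 11309 cells, 0.157 to 0.347) of the kept cells on day 7 and 0.602% (69 of 11464, 0.469 to 0.761) on day 8. On day 10 they formed 3.41% (342 of 10028, 3.06 to 3.78) and on day 12 9.69% (1575 of 16254, 9.24 to 10.2). The share was therefore higher in each later library, and no interval reached its neighbour's. It is a share of all kept cells, and their make-up differed between libraries too. Cartilage-rich cells (at least 5% of UMIs in 6 cartilage genes, no Ptprc) formed 60.7%, 31.5%, 1.8% and 13.8% of them. Osteoclasts (5 or more of the 7 osteoclast genes) formed 0.25%, 0.80%, 1.09% and 6.06%. Cells with at least 3% of UMIs in S100a8 and S100a9 formed 0.027%, 0.12%, 5.4% and 5.4%. What part this plays was not tested. A rule on UMIs finds more cells where cells are deeper, so every cell was also thinned at random to 1000 UMIs before the rule was applied. Then 7, 16, 147 and 831 cells passed, which is 0.0619% (0.0249 to 0.128), 0.140% (0.0798 to 0.227), 1.47% (1.24 to 1.72) and 5.11% (4.78 to 5.46). Of these cells 7, 16, 132 and 777 were members at full depth. Thinning also lowers the counts that the limits use, so on days 10 and 12 it let in some cells that the full rule left out. The order of the days held at equal depth, with the intervals of days 7 and 8 overlapping.

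**Figure D1:**
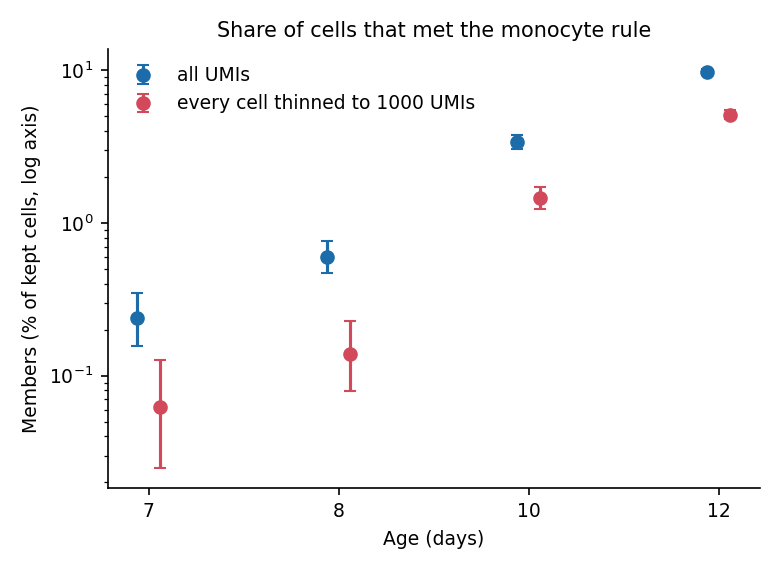
Share of kept cells that met the monocyte rule (per cent, log axis) at each age in days, with all UMIs (blue) and with every cell thinned to 1000 UMIs (red). Points are single libraries and bars are 95% Clopper-Pearson intervals; the shares run from 0.239% to 9.69% with all UMIs and from 0.0619% to 5.11% after thinning.

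The threshold of 3 genes did not fall in a gap. Cells that met every other limit and held exactly 2 of the 7 genes numbered 12, 63, 381 and 616 on days 7, 8, 10 and 12, against 15, 40, 96 and 377 with exactly 3. Lyz2, lysozyme of monocytes, macrophages and neutrophils, stood at 1188, 1604, 146.0 and 342.5 CPM in the cells with 2 genes and at 2996, 2050, 581 and 1748 CPM in those with 3. At 4 genes it stood at 6807, 5318, 2443 and 3826 CPM. Thus the cells just inside the threshold held less Lyz2 than those further in. Of the cells with at least 3 of the genes, 41, 116, 728 and 2114 in the 4 libraries, the calgranulin limit removed 260 on day 10 and 204 on day 12, and the C1q limit 13, 44, 63 and 188.

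Of the 5 genes that the label gives for these cells, Ccr2, Adgre4, Gpr141 and Ear2 are in the rule and Lyz2 is not. Lyz2 stood at 5227, 4472, 5033 and 4774 CPM in members on days 7, 8, 10 and 12. After thinning to 1000 UMIs it was found in 85.2%, 84.1%, 75.4% and 85.1% of members, against 0.875%, 2.49%, 2.75% and 4.24% of cartilage-rich cells, which should lack it. Before thinning, the cartilage-rich cells had median depths of 3290, 3485.5, 19151 and 10058.5 UMIs. Lyz2 also stood at 2894, 2801, 2883 and 2780 CPM in macrophages with at least 5 C1q UMIs, so it marks the phagocyte lineage and not monocytes alone. Plac8, a gene of classical monocytes outside the rule, stood at 2446, 1279, 1627 and 2107 CPM in members and at 26.5, 14.2, 47.4 and 134.7 CPM in those macrophages. Conversely Maf, a transcription factor of resident macrophages, stood at 209.1, 161, 97.2 and 115 CPM in members and at 789.7, 598.5, 1516 and 795 CPM in the macrophages. Not every gene of the lineage sets the members apart. Ms4a6c, another monocyte gene, stood at 491, 635, 683 and 535 CPM in members and at 603, 515.5, 493 and 499 CPM in the macrophages. In neutrophils, cells with at least 3% of UMIs in S100a8 and S100a9, Lyz2 stood at 4386 CPM on day 10 and 3356 on day 12. Plac8 and Maf were picked from longer lists. All 12 monocyte identity genes summed to 18850, 13830, 12250 and 12500 CPM in members. In the macrophages they summed to 11760, 11330, 11130 and 9695 CPM. Without Lyz2 and Plac8 the rest summed to less in members than in macrophages on days 8, 10 and 12. The part that the C1q limits play in the Maf levels was not tested. The label therefore fits the summed members against C1q macrophages by Plac8 and Maf, but not by the rest of the identity list on those days. Reservations on single subclusters are given further on.

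Among the 7 rule genes, Ccr2 stood at 261, 454, 764 and 927 CPM in members on days 7, 8, 10 and 12. After thinning, 22.2%, 34.8%, 44.7% and 56.8% of members held a Ccr2 UMI, against 0.0146%, 0.0831%, 0% and 0.758% of cartilage-rich cells, where 0 of 182 cells on day 10 allows up to 1.65%. Hence many members carry no Ccr2 UMI at that depth and entered through other genes of the rule. Ly6c2, the surface protein of classical monocytes, stood at 178, 224, 834 and 244.5 CPM, and was 3.41-fold (3.26 to 3.58) lower on day 12 than on day 10. Its near-identical copy Ly6c1 could share its reads, so its level is uncertain. Adgre4, an adhesion receptor of mature monocytes, went the other way, at 679.5, 306, 145 and 239 CPM, and was 1.65-fold (1.52 to 1.79) higher on day 12 than on day 10. Cybb, the catalytic subunit of the phagocyte oxidase, stood at 1234, 838.5, 1072 and 1196 CPM and Gpr141, an orphan receptor, at 439, 289, 261 and 328 CPM. The lectin-like receptor gene Klra2 stood at 293, 171, 130.5 and 179 CPM, and the ribonuclease gene Ear2 at 209, 224, 175.5 and 111 CPM. Ccr2 was thus lowest and Adgre4 highest on day 7, where the 27 members make every value imprecise.

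**Figure D2:**
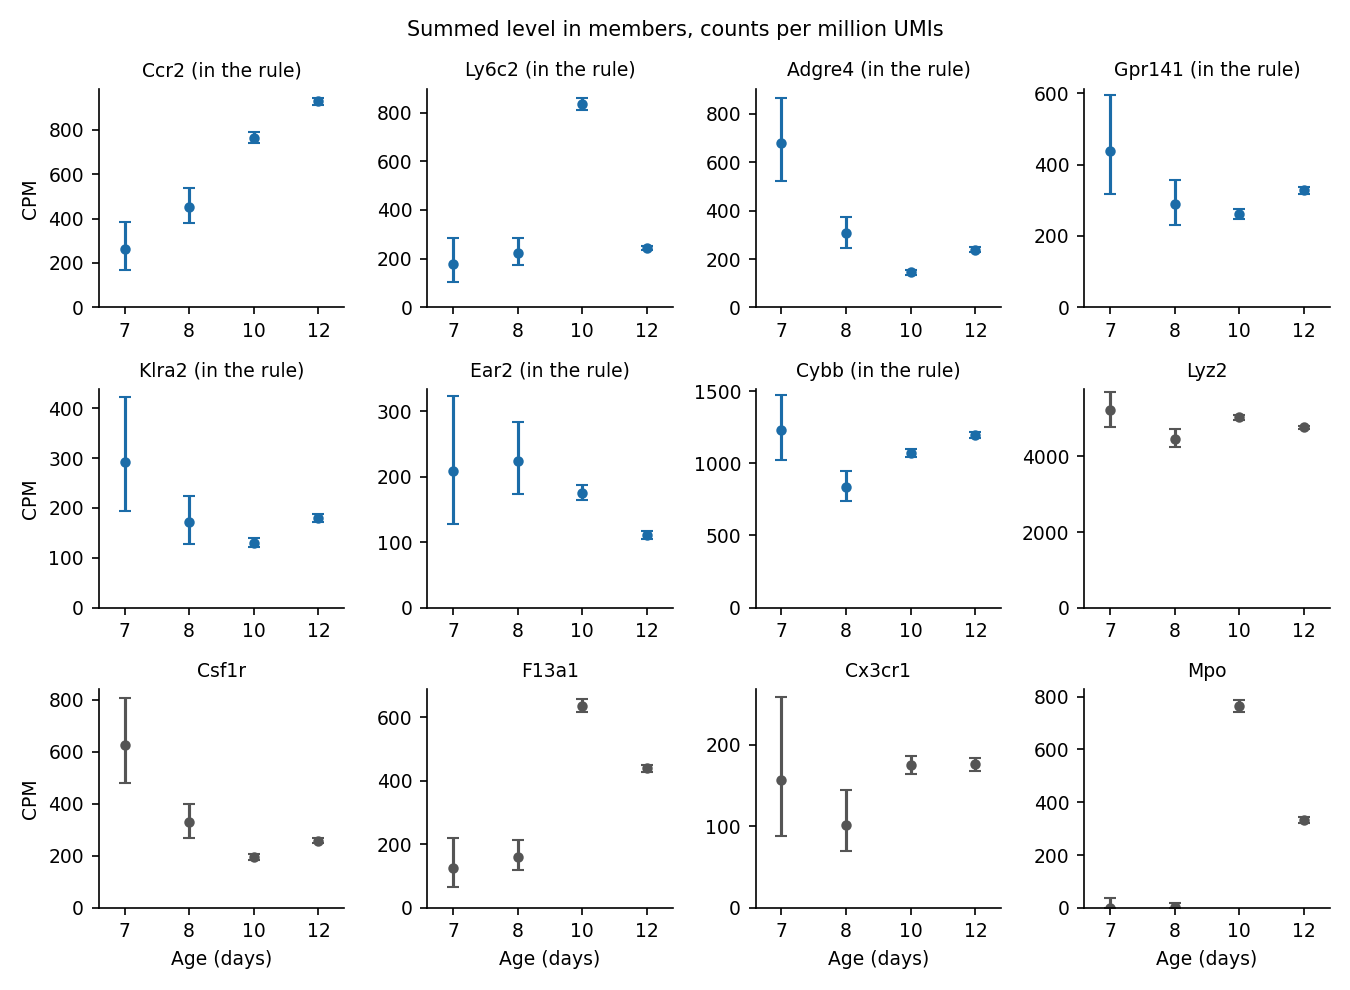
Summed level in members (CPM, linear axes from 0) of the 7 rule genes (blue) and of Lyz2, Csf1r, F13a1, Cx3cr1 and Mpo (grey) at each age in days. Points are single libraries and bars are 95% Poisson intervals; Ccr2 runs from 261 to 927 CPM, and Ly6c2, F13a1 and Mpo are highest on day 10.

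The 15 genes highest in members over all other kept cells were ranked by their smallest fold over days 8, 10 and 12. They describe the cells the rule chose against every other kind of cell together, not against other phagocytes. They were led by Gm9733 (at least 31.5-fold on each of these days), Cd209a (23.6), Ms4a4c (22.2), Sirpb1c (20.6) and F10 (19.1). Then came Gm15987 (15.1), Sirpb1b (13.4), Ms4a6c (12.8), Ccl6 (12.8), Clec7a (12.7), Rnase6 (12.6), Marchf1 (12.0), Itgal (11.7), Lyz2 (11.7) and Gvin3 (11.7). F10 makes coagulation factor X, Clec7a is the receptor for fungal beta-glucan and Ccl6 is a chemokine. Itgal is the alpha chain of the integrin LFA-1 and Cd209a is a lectin of monocyte-derived and dendritic cells. Cd209a had a UMI in only 0%, 5.80%, 7.60% and 9.71% of members on days 7, 8, 10 and 12. Ms4a6c was near its level in the C1q macrophages, as given above. On day 12 the neutrophils held more Ccl6 (663 against 528 CPM) and Sirpb1b (100.5 against 89.8 CPM) than members. The rest of the 15 stood higher in members than in neutrophils and C1q macrophages on that day, but some by less than 1.5-fold. Against neutrophils these were Clec7a (197 against 174.5 CPM), Itgal (494 against 375 CPM) and Lyz2 (4774 against 3356 CPM). Against C1q macrophages it was Ms4a6c (535 against 499 CPM).

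Members were not all alike. Clustering them by themselves gave 16 subclusters, and the genes that define a subcluster are a description. A subcluster was tied to the list with the largest share of its genes at least 3-fold above the other members and with a UMI in at least 20% of the subcluster's cells, if at least 3 genes met this. Subcluster 1, with 563 cells, met this for no list, and its 10 genes of largest fold held Arhgef37, Gm9733, Klra2, Lyz2 and Tlr7. Subcluster 2, with 295 cells, had 9 of the 14 patrolling genes above the other members, among them Cx3cr1, Ace, Treml4 and Eno3, and is called patrolling-monocyte-like. Subcluster 3, with 192 cells, had all 7 class II genes and also 7 of the 10 conventional dendritic cell genes above the other members. It has no cell type name here and was kept among the members. Subcluster 4, with 176 cells, mixed neutrophil and osteoclast genes such as Camp and Acp5, and subcluster 5, with 146 cells, held S100a8, Fcnb and the cell cycle gene Cdkn3 among its 10 genes of largest fold, and neither met a list. Subclusters 7 and 8, with 109 and 81 cells, had 7 and 12 of the 18 inflammation genes above the other members. The largest folds were those of Ms4a7, C3ar1 and Lsmem1 in subcluster 7, and of the heat shock genes Hspa1b and Hspa1a in subcluster 8. Subcluster 9, with 70 cells, had 6 of the 8 primary granule genes above the others and was led by Ms4a3, Mpo, Ctsg and Elane. Subclusters 6 and 10 to 16, with 381 cells in all, met the lists of stroma, endothelium, red cells, cartilage, neutrophils, plasmacytoid dendritic cells or T and NK cells, and are called the subclusters led by another lineage.

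On day 12, Ly6c2 stood at 1032 CPM (920.0 to 1155) in subcluster 5, at 900.3 (833 to 971) in subcluster 9 and at 453 (426 to 481) in subcluster 1, and at 54.0 (40.3 to 70.8) in the patrolling-monocyte-like cells. Ccr2, the egress receptor, stood at 1063, 195, 2015 and 726 CPM in the same order. Cx3cr1, the chemokine receptor of patrolling cells, stood at 87.7, 14.8, 195.5 and 473 CPM in them. F13a1, the coagulation factor XIII subunit of classical monocytes, stood at 1690, 535, 1134 and 61.3 CPM. So the 3 subclusters with more Ly6c2 and F13a1 than the patrolling-monocyte-like cells had less Cx3cr1. Mpo stood at 4828 CPM and the stem cell factor receptor gene Kit at 106.5 CPM in subcluster 9, whose Ccr2 was the lowest of the 7 subclusters plotted. Subcluster 3 held 6104 CPM of H2-Aa and 228 CPM of Flt3, a growth factor receptor of dendritic cell precursors, beside 1383 CPM of Ccr2. In subcluster 7 Tnfrsf11a, the receptor RANK that starts osteoclast formation, stood at 371 CPM, Csf1r at 639 CPM and Maf at 573 CPM, against 43.4, 391 and 131.5 CPM in subcluster 1.

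**Figure D3:**
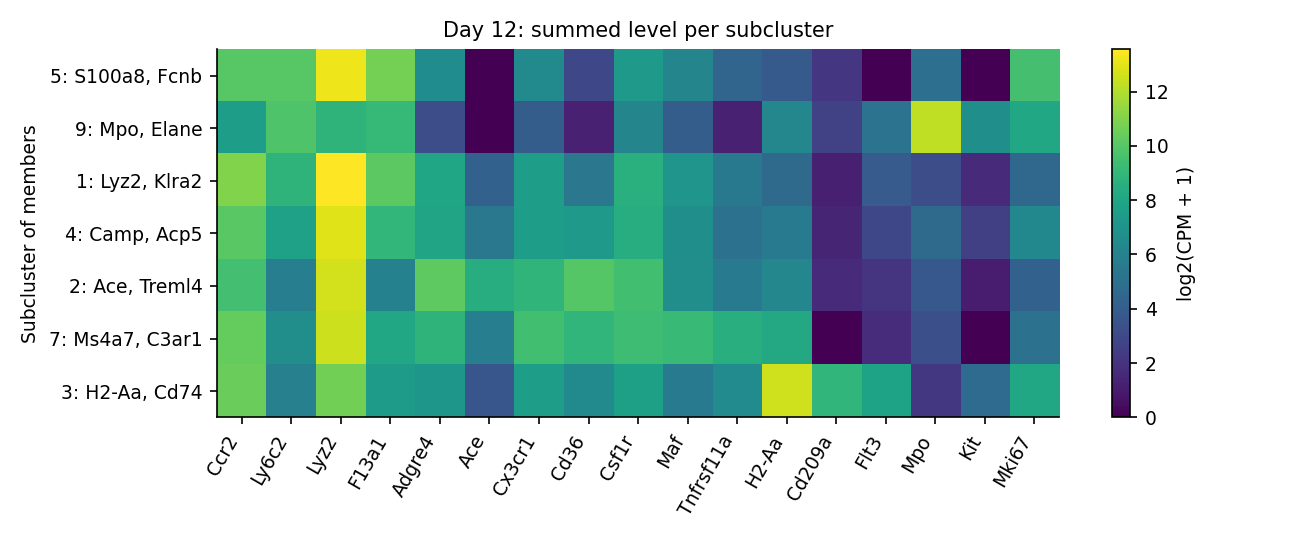
Summed level of 17 genes, as log2(CPM + 1), in 7 subclusters of members in the day-12 library; color gives the level. Ly6c2 is highest in subclusters 5 and 9 while Ace, Cd36 and Adgre4 are high in subcluster 2, and H2-Aa stands out in subcluster 3.

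The days did not share subclusters evenly. Subcluster 8, whose 10 genes of largest fold included Hspa1a, Hspa1b, Il1b, Acod1 and Il1rn, held 25 of the 27 day-7 members and 56 of the 69 day-8 members and none from days 10 and 12. Subcluster 1 held 0, 2, 32 and 529 members of days 7, 8, 10 and 12, subcluster 5 held 0, 1, 100 and 45, and subcluster 2 held 0, 0, 18 and 277. Because each day is 1 library and these cells differ in the genes that define the clusters, the sizes are no measure of how cell types changed with age. At the finest setting tried, 82 of the 96 members of days 7 and 8 still shared a subcluster, with 8 members of the later days, and at the coarsest with 75. Most members of days 7 and 8 thus stood apart at the main and finest settings but not at the coarsest. Age, library and cell state cannot be told apart in this, and results that use day 8 rest on 69 cells.

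RNA of other lineages was present in members. Col2a1, the cartilage collagen, gave a UMI in 100%, 100%, 93.0% and 99.8% of members on days 7, 8, 10 and 12 at full depth. The 8 cartilage genes summed to 7516, 7284, 2402 and 13300 CPM, the 8 stroma genes to 1464, 2670, 16410 and 44460 CPM, and the 8 erythroid genes to 24280, 852, 20470 and 8563 CPM. Without the subclusters led by another lineage, a choice made after seeing the data, 26, 64, 289 and 1253 members were left. Their sums were then 7663, 4201, 598 and 3455 CPM for cartilage, 1500, 1938, 7478 and 12300 CPM for stroma and 359, 944, 12150 and 4978 CPM for red cells, so 1 left-out member carried most of the erythroid sum of day 7. The 10 plasmacytoid dendritic cell genes summed to 429, 520, 783 and 839.8 CPM over all members, and the 10 conventional dendritic cell genes to 62.7, 224, 255 and 276 CPM. The 11 neutrophil genes summed to 261, 151, 325 and 416.5 CPM, with Retnlg, Cxcr2 and Ly6g at 0 on days 7 and 8, and the 16 genes of C1q macrophages to 1976, 1700, 945 and 1164 CPM, with Cd5l at 0 on every day. The 6 eosinophil genes summed to 0, 0, 5.54 and 4.25 CPM, with Epx at 0 throughout. No doublet caller was run. The part that free RNA and doublets play in the results was not tested, and values without those subclusters are given where they change a call.

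The ratio of day 12 to day 10, with 1575 against 342 members, compares the libraries with the most members. Higher and lower mean past 1.5-fold, with 1 UMI added to each sum, among genes with at least 50 UMIs over both libraries. Of 12040 such genes 16.3% were higher and 11.9% were lower on day 12, and the median of all genes was 0.06 on the log2 scale. Without the subclusters led by another lineage, 15.1% of 10423 genes were higher and 10.6% lower, with a median of 0.09. Among 10959 genes in the C1q macrophages, 13.9% were higher and 7.69% lower.

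Over all members, the receptors of growth factors and of traffic were mostly inside 1.5-fold between these days. Csf1r, which receives the macrophage growth factor CSF1, stood at 627, 329, 194 and 257.5 CPM on days 7, 8, 10 and 12. Of 17 growth factor receptors only Il10ra, the receptor of interleukin 10, was higher on day 12 (73.5 against 112 CPM, 1.52-fold, 1.36 to 1.71), and none was lower. Without the subclusters led by another lineage 7 of 17 were higher (Csf1r, Csf3r, Ifngr1, Tnfrsf1b, Tnfrsf11a, Il10ra and Tgfbr1) and only Kit was lower. Csf1r then stood at 224 CPM on day 10 and 363 on day 12, 1.62-fold higher, so for these receptors the call depends on whether those cells are counted. Of 14 measured traffic receptors, Itga4, the integrin subunit that anchors cells to VCAM1, was at the edge of the threshold (299.9 against 450.2 CPM, 1.501-fold, 1.42 to 1.59). Cx3cr1 stood at 157, 102, 175 and 176 CPM, and Itgal at 366, 168, 391 and 494 CPM, and Itgal was 1.53-fold higher on day 12 without those subclusters. The patrolling receptor Cx3cr1 was thus level between days 10 and 12.

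Transcription factors of the lineage were mostly level as well, with 2 of 19 higher, among them Pou2f2, and 2 lower (Cebpe and Gfi1). When the subclusters led by another lineage were left out 5 were higher, among them Cebpa, Irf4, Zeb2 and Pou2f2, and only Cebpe was lower. Spi1 (PU.1) stood at 355, 266, 288 and 277 CPM on days 7, 8, 10 and 12. Cebpe, a factor of granule formation, stood at 0, 6.58, 21.3 and 6.09 CPM on the 4 days, so it was higher on day 10 than on day 12. Days 7 and 8 cannot be ranked against day 10, since their counts allow up to 38.6 and 23.8 CPM. Klf4, which monocyte formation needs, stood at 334.5, 437, 520 and 347 CPM, and Klf2, a factor of quiescence, at 178, 319, 376 and 481 CPM.

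The primary granule genes, made in progenitors, were lower on day 12, with 5 of 8 lower, 1 higher and a median log2 ratio of -1.29. Mpo, myeloperoxidase, stood at 0, 3.29, 764 and 332 CPM on days 7, 8, 10 and 12 and was 2.30-fold (2.20 to 2.40) lower on day 12 than on day 10. Elane, neutrophil elastase, stood at 0, 0, 718 and 193 CPM and was 3.73-fold (3.54 to 3.93) lower. Prtn3, proteinase 3, stood at 10.5, 39.5, 515 and 197 CPM. Ctsg and Ms4a3, a further granule protease and a gene of granulocyte and monocyte progenitors, stood at 370.3 and 165 CPM on day 10 and at 134 and 63.4 CPM on day 12. Under the rule these genes were higher in members of days 10 and 12 than of days 7 and 8, where Elane, Ctsg and Ms4a3 had no UMI. That absence rests on 27 and 69 members. The day-8 library did hold such RNA, since the 8 genes summed to 18720 CPM in its 14 neutrophils. With 2 rule genes in place of 3 the direction of the list median against day 8 was the opposite, as given further on. Igfbp4, which was placed on this list, went the other way, at 10.5, 52.6, 198 and 303 CPM. When the subclusters led by another lineage were left out the same 5 genes were lower, Igfbp4 was inside 1.5-fold and the median was -0.95, and in the C1q macrophages it was 0.42. With 4 rule genes required the median was -0.56, so its size depends on which cells the rule takes in. The RNA was also not spread evenly over members. In subcluster 9 Ms4a3, Mpo, Ctsg and Elane stood 125-, 116-, 114- and 106-fold above the other members, over all days together. That subcluster formed 0%, 0%, 10.2% and 2.22% of members on days 7, 8, 10 and 12. The summed levels of these 4 genes thus describe few cells and not members at large.

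Cell division genes were lower on day 12 almost as a group, with 17 of 18 lower, none higher and a median of -0.88. Mki67, a protein of dividing nuclei, stood at 10.5, 135, 257 and 144 CPM on days 7, 8, 10 and 12 and was 1.78-fold (1.66 to 1.91) lower on day 12 than on day 10. Ccnb2, a cyclin of mitosis, stood at 0, 135, 188 and 49.9 CPM and was 3.76-fold (3.398 to 4.17) lower. Pcna, the clamp of DNA replication, was the 1 gene inside the threshold, at 157, 233.5, 457 and 341 CPM. In the C1q macrophages 1 division gene was higher and 1 lower, with a median of 0.09, and Mki67 stood at 211, 220.5, 232 and 220.2 CPM in the 4 libraries. In cells thinned to 1000 UMIs, 0 of 27, 8 of 69, 116 of 342 and 275 of 1575 members held UMIs of at least 2 of the 18 genes. Those shares are 0% (0 to 12.8), 11.6% (5.14 to 21.6), 33.9% (28.9 to 39.2) and 17.5% (15.6 to 19.4), against 30.1%, 36.7%, 35.5% and 32.8% of the C1q macrophages. The day-10 share exceeded the day-12 share by more than their counting intervals, and without thinning the shares were 14.8%, 36.2%, 89.8% and 57.0%. Leaving out the subclusters led by another lineage gave 36.0% on day 10 and 16.6% on day 12, and 16 of the 18 genes lower.

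Division sat in some subclusters more than in others. On day 12 Mki67 stood at 752 CPM in subcluster 5, at 266 in the class II subcluster 3 and at 264 in the granule subcluster 9, against 21.9 in subcluster 1 and 17.7 in the patrolling-monocyte-like cells. Subclusters 5 and 9 held 135 of the 342 day-10 members and 80 of the 1575 day-12 members. Ly6c2 in them was also lower on day 12: 1471 against 1032 CPM in subcluster 5, and 1719 against 900.3 CPM in subcluster 9. In subcluster 1 it stood at 574 (487 to 671) and 453 (426 to 481) CPM, a difference inside 1.5-fold.

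Genes of the mature and alternative fates gave no single picture. Of 13 patrolling genes 2 were higher (Pou2f2 and Pglyrp1) and 4 lower (Cd36, Fabp4, Cd300e and Dusp5) on day 12, with a median of -0.31. Cd36, a scavenger receptor, stood at 366, 335, 271 and 156 CPM on days 7, 8, 10 and 12, and Fabp4, a fatty acid binding protein that vessel cells also make, at 20.9, 224, 673 and 335 CPM. In members outside the other-lineage subclusters that median was 0.04, with 5 genes higher (Ace, Itgal, Fabp4, Pou2f2 and Pglyrp1) and 1 lower (Dusp5). Fabp4 changed direction, at 29.8 CPM on day 10 and 53.6 on day 12, so its level over all members lay mostly in the cells led by another lineage. None of the 7 class II genes was past 1.5-fold over all members, and Cd74 alone was, at 1.58-fold higher, without those subclusters. H2-Aa, a chain of the molecule that presents peptides, stood at 0, 839, 849 and 896 CPM and Cd74, the invariant chain, at 10.5, 1595, 858 and 1188 CPM. Day 7, with 27 members, had no UMI of H2-Aa, H2-Eb1, H2-DMb1 or Ciita, while H2-DMa, a chain of the peptide loader, stood at 83.6, 138, 109 and 117 CPM on the 4 days. H2-Aa was near one level on days 8, 10 and 12 in the summed members, but it was not spread evenly over them. In subcluster 3, which also had dendritic cell genes, it stood 39.5-fold above the other members. That subcluster held 0, 4, 30 and 158 members of days 7, 8, 10 and 12. The 39.5-fold is over all days together, and the part of the day-8 level that lay in those 4 cells was not measured. The absence on day 7 rests on 27 members.

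Of 7 measured genes on the path to osteoclasts, 4 were higher on day 12 (Nfatc1, Mmp9, Jdp2 and Src) and 1 was lower (Car2), although the rule removes cells with 5 or more of the osteoclast genes. The same 4 were higher and Car2 lower in the C1q macrophages. Of the osteoclast genes that the rule limits, Acp5, Ctsk, Atp6v0d2, Slc9b2 and St18 stood at 44.0, 96.2, 20.1, 4.42 and 26.7 CPM in members on day 12. On day 10 they stood at 19.96, 48.4, 6.10, 2.77 and 12.8 CPM. The rule itself caps these genes, and members were deeper on day 10 (median 11470 UMIs) than on day 12 (4925). Their levels therefore describe the selection and support nothing. Nfatc1, the master factor of osteoclasts, stood at 105, 72.3, 77.4 and 149 CPM and was higher on day 12 by 1.92-fold. Mmp9, a matrix protease that neutrophils also carry, stood at 31.4, 36.2, 27.5 and 122 CPM and was 4.42-fold (3.74 to 5.27) higher. Tnfrsf11a, the receptor RANK, stood at 41.8, 88.8, 31.6 and 46.2 CPM and was inside 1.5-fold, but 1.93-fold higher without the subclusters led by another lineage. Mmp9 stood at 2698 CPM in the osteoclasts and at 1112 CPM in the neutrophils of day 12. Without those subclusters, Mmp9 in members stood at 25.7 and 72.2 CPM and was higher on day 12 by 2.81-fold.

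Over all members, most sensing, uptake, killing and secreted genes were inside 1.5-fold. Of 19 microbe sensing genes 3 were higher (Tlr7, Ly96 and Clec4a1) and 3 lower (Cd14, Clec4e and Clec12a). Of 14 Fc receptor and phagocytosis genes 2 were higher (Sirpa and Mertk) and 2 lower (Cd36 and Trem1). None of the 5 oxidase genes differed past 1.5-fold, nor did the Cybb of the rule. Of 18 secreted genes Lyz1 and Vcan were higher and none was lower. Without the subclusters led by another lineage, 6 sensing genes, 4 uptake genes, 1 oxidase gene and 5 secreted genes were higher, against 2, 1, 0 and 0 lower. F13a1 stood at 125, 161, 636 and 439 CPM on days 7, 8, 10 and 12.

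Of 18 interferon response genes 8 were higher and 2 lower, with a median of 0.36 in members, against -0.33 in the C1q macrophages. Some of the genes were sparse: Ifit3, an antiviral RNA binding protein, had 5 UMIs on day 10 and 68 on day 12, or 0.924 and 5.67 CPM (6.14-fold, 2.51 to 19.5). Isg15, a ubiquitin-like protein, stood at 3.51 and 7.09 CPM (2.02-fold, 1.22 to 3.52), and Irf7, the factor that amplifies interferon, at 10.3 and 16.0 CPM (1.55-fold, 1.14 to 2.12). Ifi211 went the other way, at 128 and 54.7 CPM. Stat2, which carries the interferon signal to the nucleus, stood at 26.8 and 41.3 CPM (1.54-fold). The more abundant Ifi27l2a stood at 116 and 147 CPM, inside 1.5-fold, but outside the other-lineage subclusters at 129 and 207 CPM, 1.60-fold higher. There 9 of 17 genes were higher and 1 was lower. The difference between the cell types was not tested.

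Inflammation genes were lower on day 12, with 11 of 17 lower, none higher and a median of -0.76. Cxcl2, a neutrophil chemokine, stood at 2080, 2338, 593.5 and 135.0 CPM on days 7, 8, 10 and 12 and was 4.40-fold (4.14 to 4.67) lower on day 12 than on day 10. Il1a, an alarm cytokine, stood at 125, 155, 26.0 and 1.502 CPM and was 17.4-fold (10.6 to 30.1) lower. Nfkbia, the inhibitor that NF-kB itself induces, stood at 1558, 1430, 730.4 and 355 CPM. Outside the other-lineage subclusters 10 of 16 were lower and none higher. In the C1q macrophages 8 of these genes were lower and 2 higher, with a median of -0.46.

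**Figure D4:**
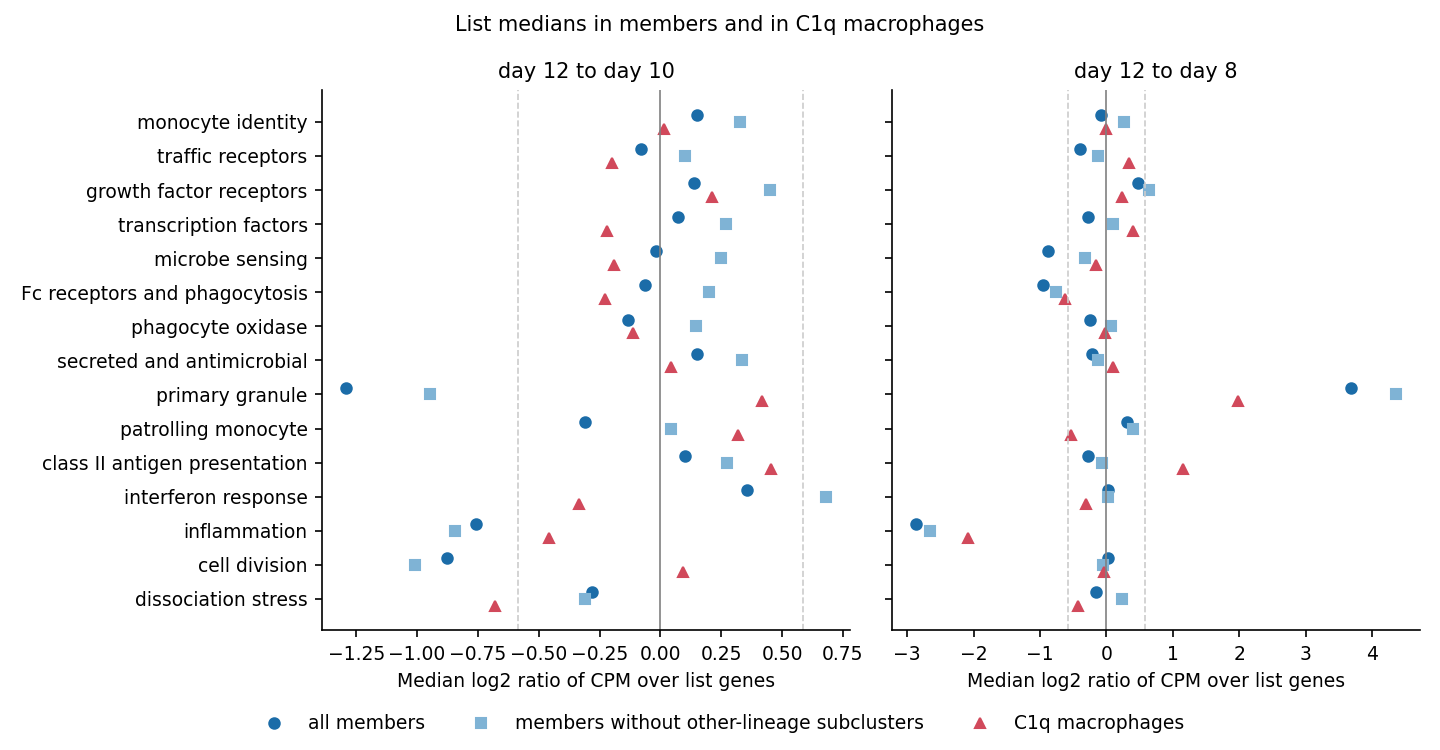
Median log2 ratio of CPM over the genes of 15 lists, day 12 to day 10 (left) and day 12 to day 8 (right), in all members (circles), members without other-lineage subclusters (squares) and C1q macrophages (triangles). Dashed lines mark 1.5-fold; cell division and primary granule medians lie left of them in members for day 10 (-0.88 and -1.29), and inflammation for day 8 (-2.87).

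Outside the lists, the 20 genes at the extremes of the ratio of day 12 to day 10, 10 at either end, differed in the same direction in the other kept cells of these libraries. The lowest were Gm10736, Slc2a7, U5, U4 (2 features of that symbol), Gm13166, Il1a, Gm8451, Sec61g and H3c7. Gm10736 stood at 31.0 and 0.501 CPM in members and at 28.4 and 0.446 CPM in the other kept cells, and Sec61g, a subunit of the protein channel of the endoplasmic reticulum, at 243 and 19.4 CPM in members and 252 and 24.4 CPM in the others. The highest were the Y-linked Eif2s3y, Ddx3y, Kdm5d and Uty, followed by Chad, Omd, Ifitm5, Cox4i2, Car3 and Cilp2, several of which are matrix genes of cartilage and bone. Eif2s3y and Kdm5d had no UMI in the day-10 members, so they were at least 91.8-fold and 27.2-fold higher against a floor of 3 UMIs.

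The ratio of day 12 to day 8 sets the 1575 members of day 12 against only 69 of day 8. Of 11280 genes 35.3% were higher and 17.9% were lower on day 12, and the median of all genes was 0.27, or 0.12 when libraries were scaled by TMM factors. Without the subclusters led by another lineage 36.5% of 9431 genes were higher and 18% were lower. In the C1q macrophages 39.4% of 10316 genes were higher and 10.3% lower. Day 7 had 27 members, too few for ratios, and its values are given only as levels.

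All 16 measured inflammation genes were lower on day 12 than on day 8, with a median of -2.87. Il1b, the cytokine interleukin 1 beta, stood at 2864, 3476, 106 and 57.3 CPM on days 7, 8, 10 and 12 and was 60.6-fold (55.0 to 66.8) lower on day 12 than on day 8. Ptgs2, the enzyme of prostaglandin synthesis, stood at 240.4, 759.6, 59.7 and 37.7 CPM and was 20.1-fold (17.1 to 23.6) lower. Cxcl2 was 17.3-fold (15.8 to 18.9) lower. In the C1q macrophages 17 of 17 genes of the list were lower on day 12, with a median of -2.09, and Il1b stood at 479, 662, 39.8 and 45.5 CPM and Cxcl2 at 959, 1611, 1184 and 235 CPM. The 18 genes of the list summed to 15180, 11900, 2862 and 1610 CPM in members and to 5631, 7791, 3854 and 1915 CPM in macrophages. So by the sum both kinds of phagocyte had more inflammation RNA on days 7 and 8. Not each gene did, since Cxcl2 in macrophages was higher on day 10 than on day 7. Il1b was past 1.5-fold higher in members than in macrophages on days 7, 8 and 10 but not on day 12.

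**Figure D5:**
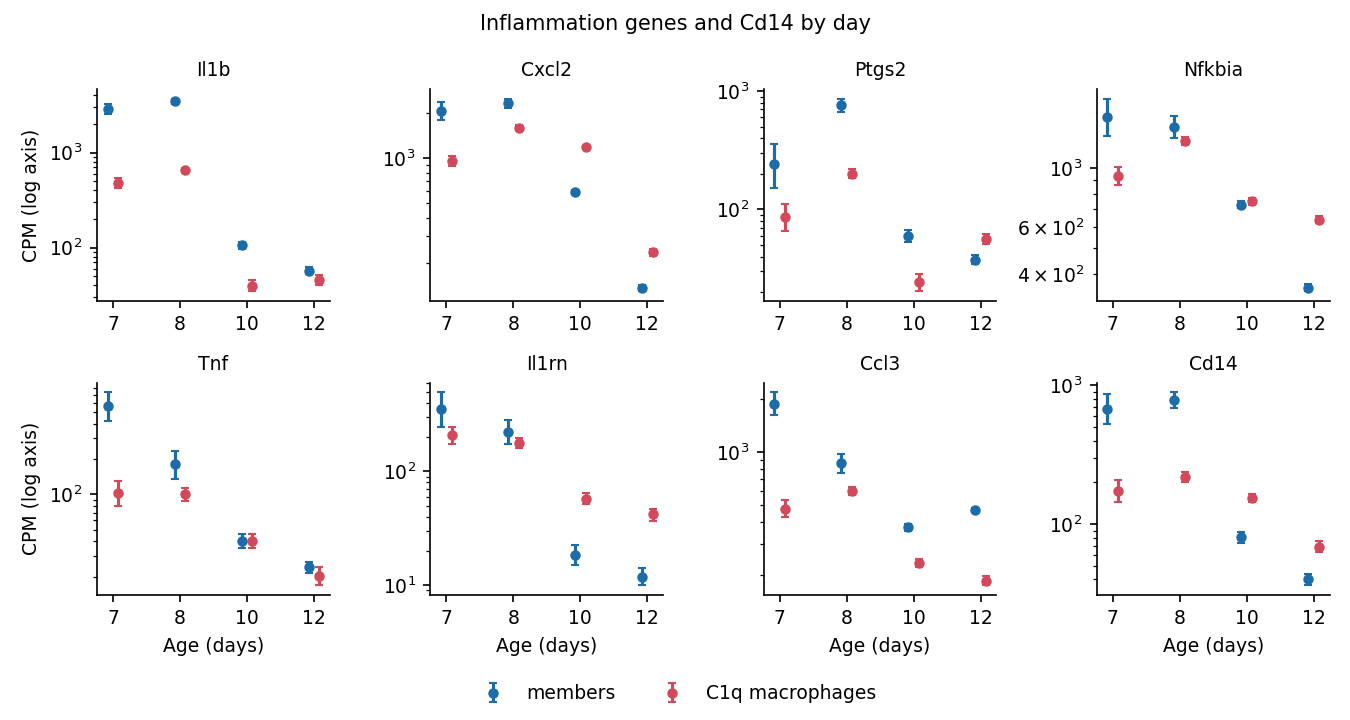
Summed level (CPM, log axes) of 7 inflammation genes and Cd14 at each age in days, in members (blue) and C1q macrophages (red). Points are single libraries and bars are 95% Poisson intervals; Il1b in members stands at 3476 CPM on day 8 and 106 on day 10.

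Heat shock genes were high in the same libraries. Hspa1a stood at 1307, 1289, 12.2 and 21.9 CPM in members on days 7, 8, 10 and 12 and at 757, 1223, 33.0 and 21.6 CPM in the C1q macrophages. Hspa1b, its twin gene, whose reads may be shared with it, stood at 889, 1243, 3.51 and 14.1 CPM in members. The osteoclasts showed the same, with Hspa1a at 593, 1239, 3.08 and 16.6 CPM. The 18 inflammation genes did not follow this in osteoclasts, where they summed to 2025, 2508, 2899 and 2020 CPM, highest on day 10. These are genes that warm digestion of tissue is known to induce, and their part in the inflammation result was not tested. Over the 15 genes of dissociation stress the median log2 ratio was -0.16, and 3 were higher and 5 lower, but outside the other-lineage subclusters it was 0.23, with 5 higher and 4 lower.

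Many receptors for microbes and antibody-coated particles were lower on day 12 than on day 8. Of 19 sensing genes 11 were lower and 5 higher, with a median of -0.88, and of 14 Fc receptor and phagocytosis genes 10 were lower and none higher, with a median of -0.96. Cd14, which presents endotoxin to its receptor, stood at 679.5, 783, 80.4 and 40.0 CPM on days 7, 8, 10 and 12 and was 19.6-fold (16.7 to 22.9) lower. Clec4e, the lectin Mincle, stood at 1087, 759.6, 139 and 54.5 CPM and Clec4n, the lectin Dectin-2, at 282, 342, 15.9 and 16.4 CPM, 13.9-fold and 20.9-fold lower on day 12 than on day 8. Msr1, a scavenger receptor, stood at 439, 431, 58.4 and 74.6 CPM and Fcgr1, the high-affinity Fc receptor, at 178, 98.7, 27.4 and 33.9 CPM. Thus days 7 and 8 lay together above days 10 and 12 for each of these receptors. When members with at least 2 genes of the plasmacytoid, eosinophil or basophil lists were left out, the sensing median was -0.25. Outside the other-lineage subclusters it was -0.32, with 8 lower and 5 higher, and the uptake median was -0.75, with 9 lower and 1 higher. In the C1q macrophages 7 sensing genes were lower and 1 was higher, with a median of -0.16, and 8 of 13 uptake genes were lower and 2 higher.

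Other groups were split between directions against day 8. Of 14 traffic receptors 5 were higher and 6 lower, among them Ccr1 (125, 326, 98.1 and 66.1 CPM), a receptor of inflammatory chemokines. Itgal was higher on day 12, by 2.95-fold. Growth factor receptors were 5 higher and 6 lower of 17, but 9 higher and 4 lower outside the other-lineage subclusters: Csf2rb, the shared beta chain for GM-CSF, stood at 659, 605, 175 and 151 CPM, whereas Il6ra, the interleukin 6 receptor, stood at 62.7, 95.4, 248.5 and 272 CPM. Of 17 secreted genes 4 were higher and 6 lower, but 6 higher and 4 lower outside those subclusters: Thbs1, thrombospondin 1, stood at 3795, 3232, 525 and 752 CPM and F10 at 679.5, 263, 64.3 and 61.7 CPM. Primary granule genes were 7 higher and 1 lower. Their median of 3.68 depends on the added count, because Elane, Ctsg, Ms4a3 and Nkg7 had no UMI on day 8, and it was 2.56 with these genes at a floor of 3 UMIs over the day-8 members. With 2 rule genes in place of 3 that median was -0.60, the opposite direction. The lower gene was Srgn, the proteoglycan of granules, at 1892, 1384, 1085 and 773 CPM, which was inside 1.5-fold without the subclusters led by another lineage.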

How the data were processed

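Droplet single-cell RNA of 4 mouse libraries, 1 for each day, was analysed. The authors deposited raw UMI counts per gene and barcode, as whole numbers in the files show, made on GRCm39 per the submitters' processing notes. For the aligner, counter, annotation and cell calling, tool names were not given in the sources used here. Barcodes were kept at 500 genes, 1000 UMIs and at most 15% mitochondrial UMIs. Members were found by the rule given at the start, and the members and 30 gene lists were chosen with earlier results of these data known.

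Counts were summed over members within a library and scaled to the members' total (CPM). Ratios used 1 added UMI, genes with at least 50 UMIs over both libraries and libraries with at least 50 members. With 1 library per day no test was possible, so 1.5-fold describes size. Thinning drew 1000 UMIs per cell at random without replacement. Members were clustered with Leiden at resolution 0.6, without batch integration. C1q macrophages held at least 5 C1q UMIs. Cartilage-rich cells held at least 5% of UMIs in 6 cartilage genes and no Ptprc. Genes named outside the lists were the 10 largest and 10 smallest ratios of day 12 to day 10, with at least 5% of members holding the gene on the higher side, the 15 genes highest over other cells at 50 CPM or more, and subcluster leaders. Doublets were treated only through alternatives: other rule genes and limits, thinned cells, members left out, other filters, added counts, TMM scaling (edgeR 4.0.16) and clustering resolutions. The ratio script was tested on simulated data. Tools were Python 3.11.15, numpy 2.4.6, scipy 1.17.1, pandas 2.3.3, scanpy 1.11.5, leidenalg 0.10.2 and matplotlib 3.10.9. Results for 3 genes of the lists are not reported here.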

Additional observations from a re-analysis of the deposited data

How the results depend on the processing

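No paired analysis was possible because each day is 1 library. Each alternative changed 1 choice. Of the values for whole comparisons 504 moved by less than the set limits, 52 by more and 1 changed sign; of the others 289, 44 and 9. With 2 rule genes the shares were 1.151% on day 8, 7.21% on day 10 and 13.48% on day 12. With 4 they were 0.1061%, 0.253%, 2.453% and 7.37% on days 7, 8, 10 and 12. Thinned to 1000 UMIs they were 0.0619%, 0.1396%, 1.466% and 5.113%. Without Cybb in the rule they were 0.1415%, 0.3227%, 2.613% and 7.555%, and without Ear2 and Klra2 0.1326%, 0.41% and 8.822% on days 7, 8 and 12. Leaving out members with 3 genes of another lineage left 0.008843%, 0.04361%, 0.05983% and 0.5045%, since nearly all members hold such RNA. On days 10 and 12, no C1q UMI gave 2.812% and 8.539%, leaving out members with plasmacytoid, eosinophil or basophil genes 1.955% and 5.974%, and leaving out subclusters led by another lineage (chosen after seeing the data) 2.882% and 7.709%. A calgranulin limit of 1% gave 3.032% on day 10, and leaving out the 6% of members with the most UMIs 9.105% on day 12. The later library had the higher share under each of these. Genes higher on day 12 than on day 10 (1959) numbered 1185 at 200 UMIs and 1287 without the plasmacytoid, eosinophil and basophil members, and genes lower (1428) numbered 784 at 200 UMIs and 871 under the thinned rule. Genes lower than on day 8 (2015) numbered 3157 at 20 UMIs and 1129 at 200.

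For day 12 to day 10, the primary granule median (-1.29) was -0.56 with 4 rule genes, -0.53 without Cybb and -1.89 without the members richest in UMIs. The plasmacytoid list (-1.36) changed sign: 0.87 with 4 rule genes, 0.84 under the thinned rule, 0.76 without Cybb, 0.30 without plasmacytoid, eosinophil and basophil members and 0.57 without other-lineage subclusters. The endothelium list (-0.88) was 0.94 under the thinned rule. For day 12 to day 8, the primary granule median (3.68) was 4.68 with a smaller added count, -0.60 with 2 rule genes, 2.33 without plasmacytoid, eosinophil and basophil members, 2.59 without the richest members and 4.36 without other-lineage subclusters. The patrolling median (0.31) was -0.62 with 2 rule genes and the division median (0.03) was 0.70 with no C1q UMI. Without plasmacytoid, eosinophil and basophil members the identity median (-0.08) was 0.54, the sensing median (-0.88) -0.25 and the cartilage median (0.80) -0.78. Cartilage was -0.047 without the richest members and -0.40 without other-lineage subclusters. Dividing shares were 24.1%, 51.5% and 30% on days 8, 10 and 12 in cells thinned to 2000 UMIs, and 26.3% and 9.91% on days 10 and 12 with 3 division genes. The cause was not tested for any of these. Medians of day 8 to day 7 were not run, since day 7 has 27 members, nor were alternatives that left under 50 members in a library: members with 3 genes of another lineage left out (82 on day 12 and 6 on day 10), and for day 8 also 4 rule genes (29), the thinned rule (16) and the rule without Cybb (37) or without Ear2 and Klra2 (47).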
